A study of Mus musculus with 12 samples.

Results

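The Slc25a genes encode the mitochondrial carriers, transport proteins that mostly sit in the inner mitochondrial membrane and exchange amino acids, nucleotides, coenzymes, organic acids, phosphate and iron between the cytosol and the matrix. In liver they connect cytosolic and mitochondrial steps of urea synthesis, glucose production, ATP export and the transfer of reducing equivalents, all of which are used differently by a fasted and a fed animal. The members were taken as every array symbol of the form Slc25a with a number, leaving out Slc25a1 and Slc25a20, and each was represented by its brightest probe set, judged by the mean of the 12 arrays. This gave 42 genes of the 18194 measured with 1 symbol per probe set, and 22 of the 42 had more than 1 probe set.

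Liver RNA of SV129XC57Bl/6 mice was measured in 4 groups of 3 arrays: fasted control, fasted LG2KO, refed control and refed LG2KO, where refed animals had been fasted and then fed. Each array held RNA pooled from 3 animals, so n = 3 pools per group throughout, and p-values measure the spread between pools. The LG2KO animals were tamoxifen treated, and because no such treatment is given for the control arrays, genotype and tamoxifen cannot be told apart. The labels do not spell out LG2KO, which is read here as loss of the hepatic glucose transporter Glut2 (Slc2a2), and they give neither the driver of the deletion nor the ages of the animals. For the fasted LG2KO arrays the title and the diet entry name fasting alone and were followed, although the source entry also names refeeding. The series asks what hepatic glucose sensing contributes to the glucose competence of beta cells; the liver arrays allow the carriers to be compared between feeding states and between genotypes.

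All values are log2 expression values of single probe sets, and differences are on the same scale, given with the standard error of the fit. A gene is said to have passed, risen or fallen when limma's adjusted p, taken over all 18194 genes, was below 0.05. Further probe sets of a gene were judged at the same threshold in a separate fit, adjusted over all 45101 probe sets. Slc2a2 read 10.00 to 11.30 on the 6 control arrays and 3.56 to 4.13 on the 6 LG2KO arrays, which matches the labels. Arrays within a group correlated at 0.983 to 0.996 over genes. Control refed replicate 1 and LG2KO fasted replicate 3 stood apart, with root mean square deviations from their group means of 0.311 and 0.300 against 0.139 to 0.220 on the other arrays. Control fasted replicate 3 had the highest mean of exocrine pancreas markers (7 measured, 8.12 against 5.10 to 5.38 elsewhere), all raised but Cela1 (9.40). The array also had the highest mean of skeletal muscle markers (6 markers, 6.69 against 4.95 to 5.33). Acta1 (8.75), Ckm (7.32), Tnnt3 (6.85) and Atp2a1 (7.13) were raised there, while Myh4 (4.02) and Mb (6.07) were within the range of the other arrays. LG2KO refed replicate 2 had the highest mean of adipose tissue markers (4 measured, 5.60 against 4.14 to 4.61). Adipoq (6.81) and Cidea (5.42) were raised there, while Retn (5.76) and Ucp1 (4.42) were within the range of the other arrays. The 5 measured hepatocyte markers averaged 13.61 to 13.84 on every array. Between feeding states, where 13.6% of all genes passed on average over genotype, 1 of these 5 passed, lower after refeeding. So did 1 of 6 endothelial and 1 of 4 erythroid markers, also lower, and 1 of 6 macrophage and 1 of 4 cholangiocyte markers, both higher; their part in the carriers' values was not tested. In tissue RNA of this kind, fewer cells of a type and less RNA per cell cannot be told apart.

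Members passed between feeding states, most of them lower after refeeding, and none passed between genotypes unless arrays were weighted, as given below. Averaged over genotype, 16 of the 42 members passed (38.1%), against 13.6% of all genes. Of these, 13 fell, where 5.77% of all genes fell, and 3 rose, where 7.86% of all genes rose. The median difference of the 42 members was -0.18, with 29 negative and 13 positive values, while the median of all genes was 0.00. Among the 30 members whose mean lay in the top 50% of genes, 15 passed in the same fit, against 24.9% of all genes in that range. The falls took in carriers of glutamate, aspartate, ornithine, dicarboxylates, NAD, coenzyme A, folate and iron, and the rises were those of Slc25a38, Slc25a44 and Slc25a45.

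**Figure D1:**
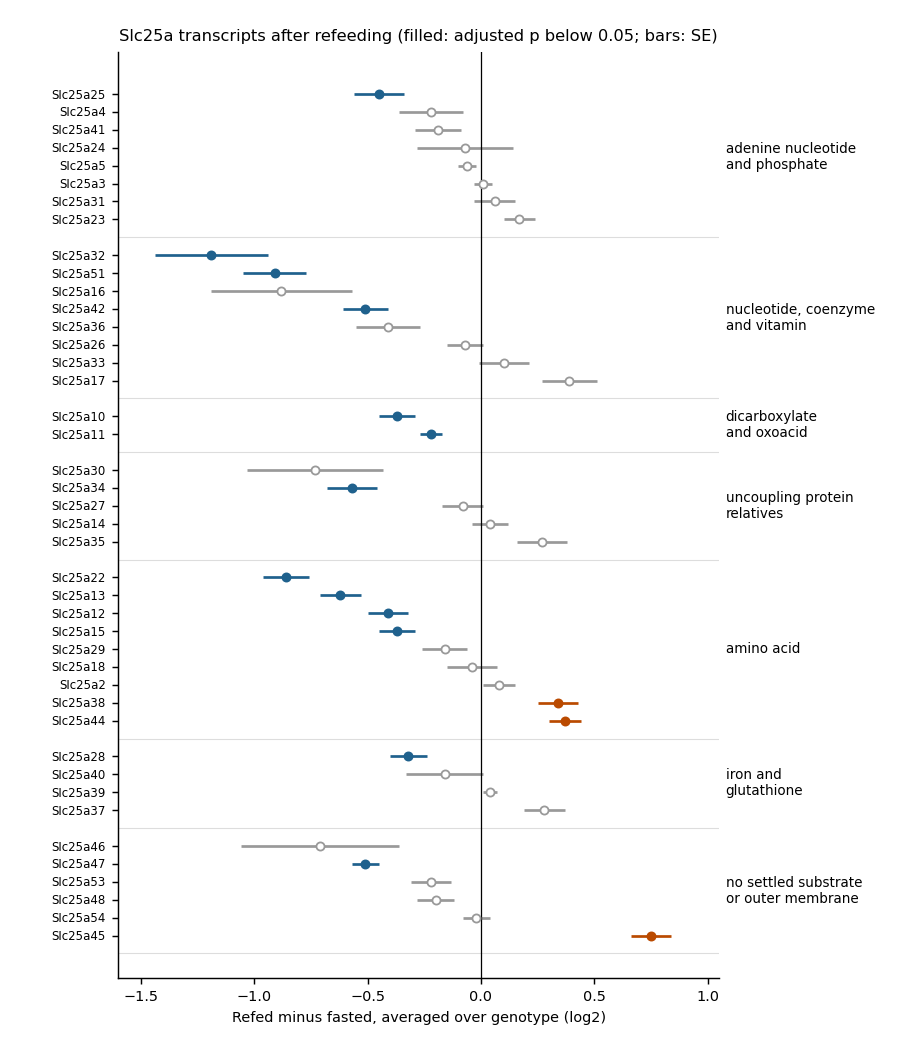
Refed minus fasted difference (log2, averaged over genotype) of the 42 Slc25a genes, grouped by what they carry; points are estimates from 12 arrays, bars are standard errors, and filled points have an adjusted p below 0.05 (blue lower, orange higher). The amino acid group holds both directions, with Slc25a22 at -0.86 and Slc25a44 at 0.37, while the ADP/ATP and phosphate carriers Slc25a3, Slc25a4, Slc25a5 and Slc25a31 lie between -0.22 and 0.06.

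Of the 9 amino acid carriers 6 passed (66.7%, against 13.6% of all genes), 4 of them lower and 2 higher. Slc25a22, a carrier of glutamate into the matrix, read 10.33, 10.40 and 10.08 in fasted control pools, 9.85, 10.42 and 10.35 in fasted LG2KO pools, 9.29, 9.42 and 9.48 in refed control pools and 9.44, 9.29 and 9.37 in refed LG2KO pools. Every refed pool lay below every fasted pool. The averaged difference was -0.86 ± 0.10 (1.81-fold lower, adjusted p = 9.41e-05), the smallest adjusted p of any member in any comparison. It fell by 0.87 ± 0.14 in controls (adjusted p = 0.00239) and by 0.84 ± 0.14 in LG2KO (adjusted p = 0.00311), and these calls held when any 1 array was left out. The related glutamate carrier Slc25a18 was at -0.04 ± 0.11.

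Slc25a13 (citrin) and Slc25a12 (aralar) exchange matrix aspartate for cytosolic glutamate in the malate-aspartate shuttle, and citrin is the liver's main form. Slc25a13 read 11.18, 11.33 and 11.40 in fasted control, 11.22, 11.22 and 10.75 in fasted LG2KO, 10.91, 10.73 and 10.64 in refed control and 10.48, 10.42 and 10.18 in refed LG2KO pools. Within each genotype the fasted pools were all higher than the refed ones, and the lowest fasted value, 10.75, came from LG2KO fasted replicate 3. The averaged fall was 0.62 ± 0.09 on the log2 scale (adjusted p = 0.000658), with -0.54 ± 0.13 in controls (adjusted p = 0.0277) and -0.70 ± 0.13 in LG2KO (adjusted p = 0.00649). The control call was lost without any 1 of control fasted replicates 2 and 3 and control refed replicates 2 and 3, with adjusted p-values up to 0.109.

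Slc25a12 read 8.95, 8.44 and 8.74 in fasted control, 8.83, 8.96 and 8.78 in fasted LG2KO, 8.42, 8.18 and 8.10 in refed control and 8.59, 8.52 and 8.42 in refed LG2KO pools. Control fasted replicate 2, at 8.44, was the lowest fasted pool and overlapped the refed LG2KO range. The averaged difference was -0.41 ± 0.09 (adjusted p = 0.0108). It passed in neither genotype alone, with -0.48 ± 0.13 (adjusted p = 0.0536) in controls and -0.35 ± 0.13 (adjusted p = 0.169) in LG2KO. With the mean of its 3 probe sets in place of the brightest, the averaged value was -0.21 ± 0.07 and no longer passed (adjusted p = 0.07).

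Slc25a15, the ornithine carrier that links cytosolic and mitochondrial parts of the urea cycle, read 12.35, 12.27 and 12.22 in fasted control, 12.40, 12.58 and 12.28 in fasted LG2KO, 12.11, 11.77 and 11.79 in refed control and 12.21, 12.13 and 11.89 in refed LG2KO pools. The feeding states did not overlap, although the highest refed pool (12.21) and the lowest fasted pool (12.22) nearly met. The averaged fall was 0.37 ± 0.08 (adjusted p = 0.00656), made of -0.39 ± 0.11 in controls (adjusted p = 0.0543) and -0.35 ± 0.11 in LG2KO (adjusted p = 0.0863). Its relative Slc25a2 read 2.62 to 3.10 on all arrays, and the basic amino acid carrier Slc25a29 was at -0.16 ± 0.10.

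The amino acid carriers that rose were Slc25a44 and Slc25a38. Slc25a44, which carries branched-chain amino acids, read 8.20, 8.12 and 8.04 in fasted control, 8.33, 8.52 and 8.52 in fasted LG2KO, 8.53, 8.79 and 8.73 in refed control and 8.67, 8.54 and 8.68 in refed LG2KO pools. The fasted control pools were the lowest group, and fasted LG2KO pools reached 8.52, just under the lowest refed value of 8.53. The averaged rise was 0.37 ± 0.07 (adjusted p = 0.00489); in controls it was 0.56 ± 0.10 (adjusted p = 0.00622), and in LG2KO the difference was 0.18 ± 0.10 (adjusted p = 0.437). The difference between these responses, -0.38 ± 0.15, did not pass (adjusted p = 0.986). A further probe set of the gene was at 0.53 ± 0.09 and also passed, and the dimmest was at -0.05 ± 0.09.

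Slc25a38, a glycine carrier needed for heme synthesis, read 8.38, 8.48 and 8.33 in fasted control, 8.13, 8.02 and 8.13 in fasted LG2KO, 8.23, 8.71 and 8.52 in refed control and 8.58, 8.82 and 8.66 in refed LG2KO pools. In LG2KO all refed pools lay above all fasted pools, while in controls replicate 1 of the refed group was the lowest of the 6. The rise passed in LG2KO at 0.59 ± 0.12 (adjusted p = 0.0121), and the control difference was 0.09 ± 0.12 (adjusted p = 0.843). Averaged, it was 0.34 ± 0.09 (adjusted p = 0.0205). The averaged call was lost without any 1 of 5 arrays (control fasted replicate 3, LG2KO fasted replicate 2, control refed replicates 2 and 3, LG2KO refed replicate 2), with adjusted p-values up to 0.0599. The LG2KO call was lost without LG2KO fasted replicate 2 (adjusted p = 0.0545) or LG2KO refed replicate 2 (adjusted p = 0.0635). The latter is the array with raised Adipoq and Cidea, whose part in the value was not tested.

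Carriers of nucleotides, coenzymes and vitamins had 3 of 8 measured members lower (37.5%, where 5.77% of all genes fell) and none higher. Slc25a51, which brings NAD into mitochondria, read 10.45, 9.93 and 10.74 in fasted control, 10.23, 10.78 and 10.18 in fasted LG2KO, 9.55, 9.24 and 9.20 in refed control and 9.58, 9.73 and 9.53 in refed LG2KO pools. All fasted pools were above all refed pools. The averaged fall was 0.91 ± 0.14 (1.88-fold, adjusted p = 0.000772), with -1.05 ± 0.20 in controls (adjusted p = 0.00686) and -0.78 ± 0.20 in LG2KO (adjusted p = 0.0322). Its other probe sets, at -1.26 ± 0.17 and -0.44 ± 0.10, passed in the same direction. The LG2KO call was lost in 5 of the 6 fits that left out an LG2KO array, all but the fit without LG2KO fasted replicate 3, with adjusted p-values up to 0.137.

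Slc25a42, a carrier of coenzyme A, read 8.50, 8.69 and 8.44 in fasted control, 8.47, 8.44 and 8.46 in fasted LG2KO, 7.66, 8.25 and 7.96 in refed control and 7.96, 8.07 and 8.01 in refed LG2KO pools. No refed pool reached the fasted range, and the refed controls spread most. The averaged difference was -0.51 ± 0.10 (adjusted p = 0.00308). The fall passed in controls at 0.58 ± 0.14 (adjusted p = 0.0219), while LG2KO was at -0.44 ± 0.14 (adjusted p = 0.0738). The control call was lost without control fasted replicate 1, control fasted replicate 2 or control refed replicate 3, with adjusted p-values up to 0.101. It was also lost when only the control groups were fitted (adjusted p = 0.108) and with the mean of its 2 probe sets (adjusted p = 0.144).

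Slc25a32, the mitochondrial folate carrier, had an averaged difference of -1.19 ± 0.25 (adjusted p = 0.00678); background at its low refed values is not known, and no exact fold is given. It read 5.63, 5.17 and 5.95 in fasted control, 6.33, 6.04 and 4.87 in fasted LG2KO, 5.21, 4.27 and 4.40 in refed control and 4.56, 4.41 and 4.02 in refed LG2KO pools. The feeding states overlapped through LG2KO fasted replicate 3 (4.87) and control refed replicate 1 (5.21), the arrays that stood apart. The LG2KO difference of -1.42 ± 0.35 passed (adjusted p = 0.0304), and the control difference of -0.96 ± 0.35 did not (adjusted p = 0.165). Without these arrays, which were picked from these same data, the control value was -1.25 ± 0.22 and passed (adjusted p = 0.00336). The LG2KO call was lost in 5 of the 6 fits without 1 LG2KO array, with adjusted p-values up to 0.13, and held only without LG2KO fasted replicate 3; it was also lost when only the LG2KO groups were fitted (adjusted p = 0.0631). Of its other probe sets, the brighter was at -1.06 ± 0.22 and passed, and the dimmer was at -0.12 ± 0.06.

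The remaining coenzyme and nucleotide carriers did not pass on all arrays. Slc25a16 was at -0.88 ± 0.31 (adjusted p = 0.0871), the pyrimidine nucleotide carrier Slc25a36 at -0.41 ± 0.14 (adjusted p = 0.0898), and Slc25a17, a peroxisomal carrier of coenzyme A and related nucleotides, at 0.39 ± 0.12 (adjusted p = 0.0578). The S-adenosylmethionine carrier Slc25a26 was at -0.07 ± 0.08 and the pyrimidine nucleotide carrier Slc25a33 at 0.10 ± 0.11.

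Both carriers of the dicarboxylate group fell, where 5.77% of all genes did. Slc25a10, which exchanges malate or succinate for phosphate, read 11.73, 11.74 and 11.89 in fasted control, 11.79, 11.89 and 11.97 in fasted LG2KO, 11.14, 11.50 and 11.50 in refed control and 11.51, 11.41 and 11.73 in refed LG2KO pools. Apart from LG2KO refed replicate 3, which reached the lowest fasted value, the refed pools were well below the fasted ones. Over both genotypes Slc25a10 fell by 0.37 ± 0.08 (adjusted p = 0.00615). The control call (-0.41 ± 0.11, adjusted p = 0.0449) was lost in each of the 6 fits without 1 control array, with adjusted p-values up to 0.163. It was also lost with only the control groups in the fit (adjusted p = 0.101), without an intensity trend (adjusted p = 0.081), without the arrays that stood apart (adjusted p = 0.0655) and with the mean of its probe sets (adjusted p = 0.0511).

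Slc25a11, the oxoglutarate-malate carrier of the malate-aspartate shuttle, read 10.65, 10.58 and 10.65 in fasted control, 10.73, 10.65 and 10.79 in fasted LG2KO, 10.37, 10.51 and 10.59 in refed control and 10.38, 10.43 and 10.47 in refed LG2KO pools. The LG2KO states were separate, and control refed replicate 3 reached the fasted control range. The averaged difference of -0.22 ± 0.05 was the smallest that passed (adjusted p = 0.0163). In LG2KO it was -0.30 ± 0.08 (adjusted p = 0.0339), a call lost in each of the 6 fits without 1 LG2KO array, with adjusted p-values up to 0.11, with only the LG2KO groups in the fit (adjusted p = 0.0546) and without an intensity trend (adjusted p = 0.0631). In controls it was -0.14 ± 0.08 (adjusted p = 0.42).

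Of the 8 adenine nucleotide and phosphate carriers, 1 passed (12.5%), a share near the 13.6% of all genes. Slc25a25, a calcium-regulated carrier of ATP-Mg and phosphate, read 10.02, 9.92 and 9.60 in fasted control, 9.90, 10.05 and 10.08 in fasted LG2KO, 9.54, 9.46 and 9.30 in refed control and 9.38, 9.92 and 9.25 in refed LG2KO pools. LG2KO refed replicate 2, the array with raised Adipoq and Cidea, lay within the fasted range at 9.92. The averaged fall was 0.45 ± 0.11 (adjusted p = 0.0175), a call that was lost without control fasted replicate 1 (adjusted p = 0.0507) and with the mean of its 3 probe sets (-0.31 ± 0.10, adjusted p = 0.0697). Its relatives Slc25a23, Slc25a24 and Slc25a41 were at 0.17 ± 0.07, -0.07 ± 0.21 and -0.19 ± 0.10.

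The carriers of ATP synthesis itself showed little difference. Slc25a3, the phosphate carrier, was at 0.01 ± 0.04, and Slc25a5, an ADP/ATP carrier, at -0.06 ± 0.04. Slc25a4, the ADP/ATP carrier of muscle and heart, was at -0.22 ± 0.14. Its highest value, 7.94, was on control fasted replicate 3, the array with most skeletal muscle markers raised, against 6.87 to 7.35 on the other arrays. The part of those markers in its value was not tested. Slc25a31, the testis form, read 2.23 to 2.84.

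In the group of uncoupling protein relatives and carriers near them in sequence, 1 of 5 passed (20%, against 13.6% of all genes). Sequences were not compared here. Slc25a34 read 7.78, 7.82 and 7.51 in fasted control, 7.52, 7.66 and 7.95 in fasted LG2KO, 7.01, 7.22 and 7.23 in refed control and 7.27, 7.25 and 6.85 in refed LG2KO pools. The feeding states did not overlap. On average it fell by 0.57 ± 0.11 (adjusted p = 0.00363), with -0.59 ± 0.15 in LG2KO (adjusted p = 0.0376) and -0.55 ± 0.15 in controls (adjusted p = 0.0543). The LG2KO call was lost in 5 of the 6 fits without 1 LG2KO array, all but that without LG2KO fasted replicate 1, with adjusted p-values up to 0.171, and when only the LG2KO groups were fitted (adjusted p = 0.0918). Slc25a14, Slc25a27 and Slc25a35 were at 0.04 ± 0.08, -0.08 ± 0.09 and 0.27 ± 0.11, and Slc25a30 at -0.73 ± 0.30 (adjusted p = 0.153).

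Of the 4 iron and glutathione carriers, 1 passed (25%, against 13.6% of all genes). The iron carriers Slc25a37 (mitoferrin 1) and Slc25a28 (mitoferrin 2) lay in opposite directions. Slc25a28 read 9.21, 9.06 and 9.07 in fasted control, 9.25, 9.26 and 9.35 in fasted LG2KO, 8.45, 8.71 and 8.77 in refed control and 8.95, 9.25 and 9.15 in refed LG2KO pools. The refed control pools were the lowest group and stood clear of the other 9 arrays. The fall passed on average (-0.32 ± 0.08, adjusted p = 0.0162) and in controls (-0.47 ± 0.11, adjusted p = 0.0237), and LG2KO was at -0.17 ± 0.11 (adjusted p = 0.525). The control call was lost without any 1 of the fasted control arrays, with adjusted p-values up to 0.105, and when only the control groups were fitted (adjusted p = 0.083). Slc25a37 was at 0.28 ± 0.09 and did not pass (adjusted p = 0.0733). The glutathione carriers Slc25a39 and Slc25a40 were at 0.04 ± 0.03 and -0.16 ± 0.17.

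The group without a settled substrate or with an outer membrane place held a clear fall and a clear rise, with 2 of 6 passing (33.3%, against 13.6% of all genes). Slc25a47, a carrier found mainly in liver and first named for its loss in liver cancer, read 13.09, 13.19 and 13.27 in fasted control, 13.51, 13.49 and 13.54 in fasted LG2KO, 12.80, 12.60 and 12.90 in refed control and 12.95, 12.74 and 13.01 in refed LG2KO pools. All refed pools lay below all fasted pools, and fasted LG2KO pools were the highest group. Averaged over genotype it fell by 0.51 ± 0.06 (adjusted p = 0.000103), with -0.41 ± 0.08 in controls (adjusted p = 0.0115) and -0.61 ± 0.08 in LG2KO (adjusted p = 0.000884). The control call was lost without control fasted replicate 3 (adjusted p = 0.055), the array with most pancreas and muscle markers raised. Its probe set is of the kind that can match several transcripts. Slc25a29, which neighbours it in the RefSeq gene order, did not pass.

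Slc25a45, an orphan carrier in the grouping used here, had the largest rise. It read 9.20, 9.18 and 9.11 in fasted control, 9.52, 9.67 and 9.48 in fasted LG2KO, 9.74, 10.17 and 10.14 in refed control and 10.08, 10.43 and 10.13 in refed LG2KO pools. Every refed pool was above every fasted pool. The averaged rise was 0.75 ± 0.09 (1.69-fold, adjusted p = 0.000115), with 0.85 ± 0.13 in controls (adjusted p = 0.00142) and 0.65 ± 0.13 in LG2KO (adjusted p = 0.0078), and it held without any 1 array. The outer membrane protein Slc25a46, which takes part in mitochondrial shape, was at -0.71 ± 0.35 (adjusted p = 0.247). Slc25a48, Slc25a53 and Slc25a54 were at -0.20 ± 0.08, -0.22 ± 0.09 and -0.02 ± 0.06.

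**Figure D2:**
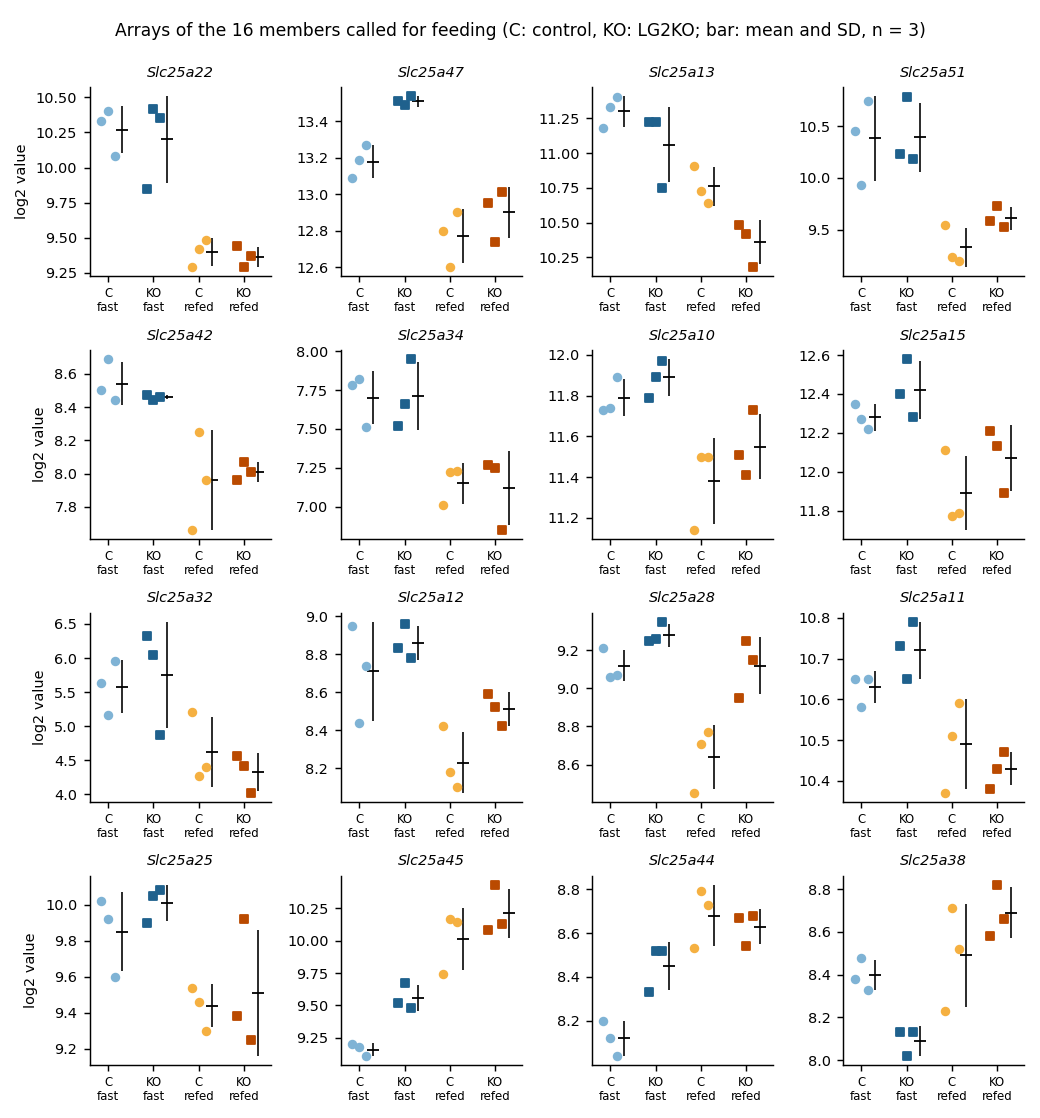
Log2 value of each array (n = 3 per group; C, control; KO, LG2KO) for the 16 Slc25a genes that passed between feeding states; the bar beside each group is its mean and SD, and each panel has its own axis, which does not start at 0. Refed pools are lower than fasted pools in the first 13 panels, with overlaps for Slc25a13, Slc25a32, Slc25a12, Slc25a28, Slc25a11 and Slc25a25, and higher in the panels of Slc25a45, Slc25a44 and Slc25a38, the last with an overlap.

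The stretches upstream of the start site are shown for the genes with the smallest adjusted p in each direction that had an entry in the RefSeq promoter table (build GRCm38.p6), Slc25a22 and Slc25a47 among the falls and Slc25a45 and Slc25a38 among the rises. Each is the 250 bases before the start, 5′ to 3′ on the gene's strand. Capitals mark the nuclear receptor word AGGTCA on either strand. The places are chr7:141437875-141438124 on the minus strand for Slc25a22 (1 of 3 starts in the table), chr12:108850879-108851128 on the plus strand for Slc25a47, chr19:5877572-5877821 on the plus strand for Slc25a45 and chr9:120110132-120110381 on the plus strand for Slc25a38.
Slc25a22: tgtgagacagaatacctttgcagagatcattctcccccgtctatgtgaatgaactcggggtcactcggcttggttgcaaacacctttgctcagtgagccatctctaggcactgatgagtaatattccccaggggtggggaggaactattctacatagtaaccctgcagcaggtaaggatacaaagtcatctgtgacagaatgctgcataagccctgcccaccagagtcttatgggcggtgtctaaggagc
Slc25a47: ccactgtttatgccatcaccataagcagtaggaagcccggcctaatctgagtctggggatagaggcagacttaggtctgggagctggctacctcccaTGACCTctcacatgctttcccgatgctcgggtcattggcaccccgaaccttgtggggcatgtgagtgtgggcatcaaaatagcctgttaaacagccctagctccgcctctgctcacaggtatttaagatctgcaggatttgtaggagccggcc
Slc25a45: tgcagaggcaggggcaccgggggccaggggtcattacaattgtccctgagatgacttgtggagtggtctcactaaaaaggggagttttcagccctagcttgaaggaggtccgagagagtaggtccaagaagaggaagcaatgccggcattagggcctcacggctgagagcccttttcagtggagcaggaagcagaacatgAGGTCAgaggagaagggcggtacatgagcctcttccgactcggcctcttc
Slc25a38: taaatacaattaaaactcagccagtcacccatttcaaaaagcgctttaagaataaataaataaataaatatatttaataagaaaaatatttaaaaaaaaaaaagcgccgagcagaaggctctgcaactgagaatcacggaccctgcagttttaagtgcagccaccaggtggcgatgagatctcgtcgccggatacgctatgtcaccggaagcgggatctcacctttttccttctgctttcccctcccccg
In Slc25a47 the word lies on the opposite strand, 153 to 148 bases before the start, and in Slc25a45 it lies 50 to 45 bases before it. AGGTCA was found in the promoters of 4 of the 32 members with an entry (Slc25a34, Slc25a39, Slc25a45 and Slc25a47) and in 14% of all 32851 promoters in the table, searched in the same length and on both strands. It is also contained in the direct repeat AGGTCANAGGTCA, the kind bound by PPAR receptors, which was in 0 of the 32 and 0.0335% of all promoters. The E-box CACGTG was in 5 members (Slc25a13, Slc25a14, Slc25a31, Slc25a33 and Slc25a36) and 6.02% of all promoters. The full cAMP response element TGACGTCA was in 1 member, Slc25a36, and 1.55% of all promoters. These are matches of letters only.

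Taken separately, the genotypes had the same number of calls. In controls 9 of 42 members passed (6.46% of all genes), 2 of them higher (3.29% of all genes) and 7 lower (3.17%). In LG2KO 9 of 42 also passed (7.05% of all genes), 2 of them higher (4.66%) and 7 lower (2.4%). The median member was at -0.16 in controls and -0.13 in LG2KO, beside -0.01 and 0.01 for all genes. The members that passed in both were Slc25a13, Slc25a22, Slc25a45, Slc25a47 and Slc25a51, 5 of the 9 in each genotype. Of all genes 677 passed in both, out of 1176 in controls and 1283 in LG2KO, a similar share. Slc25a10, Slc25a28, Slc25a42 and Slc25a44 passed in controls, and Slc25a11, Slc25a32, Slc25a34 and Slc25a38 in LG2KO. The control count fell to 5 without control fasted replicate 3, losing Slc25a10, Slc25a13, Slc25a28 and Slc25a47. The LG2KO count fell to 4 without LG2KO fasted replicate 2 and to 5 without any of LG2KO refed replicates 1, 2 and 3. The averaged count stayed between 15 and 20 over all 12 omissions.

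The refeeding differences of the genotypes use separate arrays, but each genotype holds 1 of the arrays that stood apart. For 11.9% of members and 8.92% of all genes, control refed replicate 1 read high and LG2KO fasted replicate 3 low, by more than 0.5. This shifts both differences upward, and its part in the correlation was not tested. Across the 42 members the differences correlated at a Pearson r of 0.81 and a Spearman rho of 0.83, and 35 had the same sign (83.3%). Across all 18194 genes the values were 0.68, 0.48 and 63.3%. These are descriptions across genes, which are not independent replicates. The test of the difference between the responses passed for 0 of 42 members and 1 of all genes (0.0055%). At an unadjusted p below 0.05 it held 4 members (Slc25a23, Slc25a33, Slc25a38 and Slc25a44; 9.52%) and 4.73% of all genes, and the smallest adjusted p of a member was 0.902. The intervals were wide: 36 of 42 members had a 95% interval of this difference within 1 log2 unit of 0, and 14 within 0.5.

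**Figure D3:**
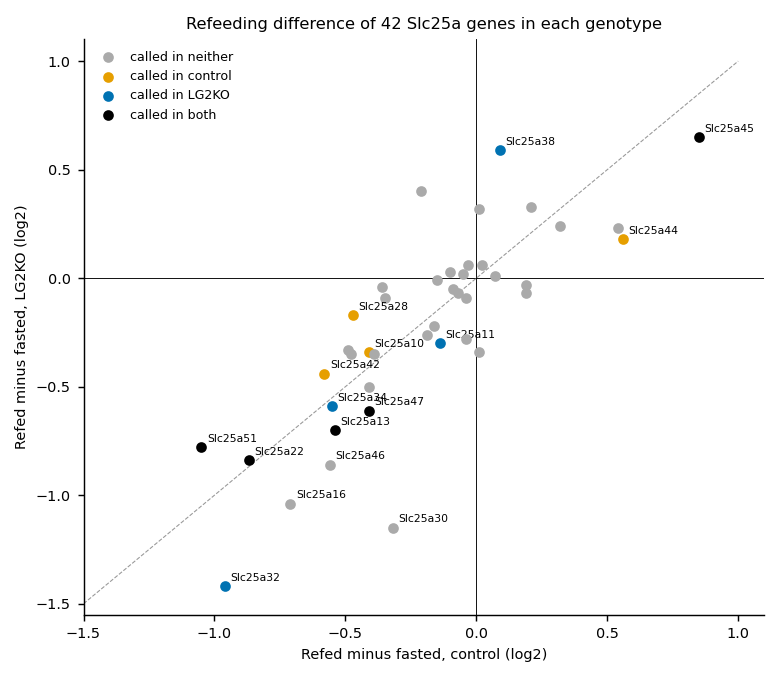
Refed minus fasted difference (log2) of the 42 Slc25a genes in control livers (x axis) and LG2KO livers (y axis), 3 arrays per group; colours show where a gene passed, and the dashed line marks equal differences. Slc25a45 lies at the upper right, Slc25a51, Slc25a22 and Slc25a32 at the lower left, and Slc25a38 and Slc25a44 lie on opposite sides of the line.

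No member passed between genotypes in either feeding state. In refed livers 0 of 42 members passed, where 0.379% of all genes did, and 3 had an unadjusted p below 0.05 (7.14%, against 9.13% of all genes). In fasted livers 0 of 42 passed, where 0.396% of all genes did, and 7 had an unadjusted p below 0.05 (16.7%, against 5.2%). Averaged over feeding 0 passed, against 1.02% of all genes, and 8 had an unadjusted p below 0.05 (19%, against 8.86%). The median member difference was 0.01 in each feeding state. With array quality weights, which give less weight to arrays far from their group, Slc25a33 (-0.72 ± 0.14, adjusted p = 0.0275) and Slc25a45 (0.45 ± 0.10, adjusted p = 0.0465) passed in fasted livers, where 1.12% of all genes then passed. On average over feeding Slc25a15, Slc25a28 and Slc25a47 then passed, at 0.26 ± 0.06, 0.27 ± 0.06 and 0.25 ± 0.06, with adjusted p-values of 0.0426, 0.0408 and 0.0426, beside 2.43% of all genes.

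Averaged over feeding, the members with the smallest adjusted p were Slc25a28 (0.32 ± 0.08, adjusted p = 0.098), Slc25a47 (0.23 ± 0.06, adjusted p = 0.119), Slc25a13 (-0.32 ± 0.09, adjusted p = 0.182) and Slc25a45 (0.30 ± 0.09, adjusted p = 0.209). In refed livers Slc25a28, the iron carrier whose pools are given above, was higher on all 3 LG2KO arrays than on any control array, at 0.47 ± 0.11 (adjusted p = 0.127), and in fasted livers it was at 0.17 ± 0.11 (adjusted p = 1). In fasted livers Slc25a47 was at 0.33 ± 0.08 (adjusted p = 0.211), its 3 LG2KO pools above the 3 control pools. Slc25a33, which carries pyrimidine nucleotides, read 9.54, 9.92 and 9.42 in fasted control, 9.31, 8.83 and 8.86 in fasted LG2KO, 9.22, 9.51 and 9.53 in refed control and 9.26, 9.40 and 9.54 in refed LG2KO pools. The fasted LG2KO pools lay below the fasted controls, and the refed groups overlapped. The fasted difference was -0.63 ± 0.16 (adjusted p = 0.228).

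Other members with a small p did not pass either. Slc25a13 was at -0.40 ± 0.13 in refed livers (adjusted p = 0.31), and Slc25a44 at 0.33 ± 0.10 in fasted livers (adjusted p = 0.474). Slc25a23, a calcium-regulated ATP-Mg carrier, read 9.24, 9.38 and 9.41 in fasted control, 9.17, 9.44 and 9.31 in fasted LG2KO, 9.25, 9.43 and 9.38 in refed control and 9.54, 9.70 and 9.64 in refed LG2KO pools. The refed LG2KO pools were the highest group, above every other array. The refed difference was 0.27 ± 0.10 (adjusted p = 0.38).

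The intervals give the range of genotype differences around each estimate, for each member alone and without adjustment over genes. Differences larger than their margin can still fail the adjusted threshold, as Slc25a33 did in fasted livers (-0.63, interval -0.98 to -0.28). In refed livers the 95% interval lay within 1 log2 unit of 0 for 38 of 42 members and within 0.5 for 30. In fasted livers this held for 39 and 24 members, and averaged over feeding for 42 and 35. The widest interval was that of Slc25a46, with a margin of 1.06 on each side in each feeding state.

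**Figure D4:**
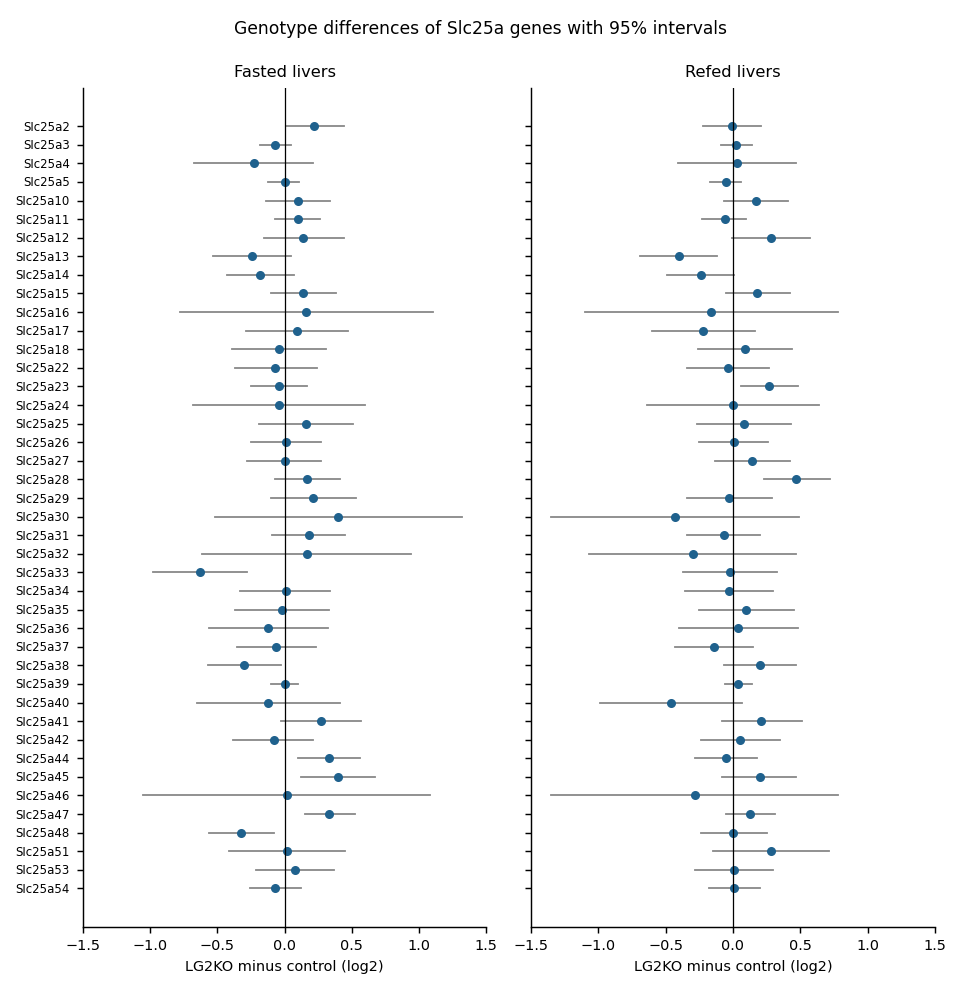
LG2KO minus control difference (log2) of the 42 Slc25a genes in fasted and refed livers, with 95% intervals from the fit (3 arrays per group). The intervals of 3 members in refed livers, among them Slc25a28 and Slc25a13, and of 7 in fasted livers, among them Slc25a33 and Slc25a47, leave out 0, and none of the members passed after adjustment over all genes.

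The arrays that stood apart bore on some members more than on others. On control refed replicate 1 and LG2KO fasted replicate 3, 5 members deviated by more than 0.5 upward on the former and downward on the latter from the mean of the other arrays of their group, 11.9% of members against 8.92% of all genes. They were Slc25a46 (1.73 and -1.61), Slc25a16 (1.49 and -1.26), Slc25a24 (1.09 and -0.90), Slc25a40 (0.93 and -0.55) and Slc25a32 (0.87 and -1.32). Slc25a16, shown as an example after its values were seen, read 8.53, 8.48 and 8.94 in fasted control, 9.26, 9.20 and 7.97 in fasted LG2KO, 8.93, 7.61 and 7.27 in refed control and 8.06, 8.14 and 7.13 in refed LG2KO pools. Control refed replicate 1 thus lay among the fasted pools and LG2KO fasted replicate 3 among the refed ones. The 3′ minus 5′ difference of the Actin controls was 0.75 and 0.76 on these arrays, within the 0.65 to 0.82 of the other arrays. For the Gapdh controls it was -0.05 and -0.07, against -0.14 to -0.06 on the other arrays, so control refed replicate 1 was the highest by a small margin.

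Without both arrays more carriers passed between feeding states, and more genes did overall. Averaged over genotype 22 of 42 members passed, 3 higher and 19 lower, against 25.2% of all genes, and these included all 16 that passed on the full set. The additions were Slc25a16 (-1.33 ± 0.18), Slc25a46 (-1.27 ± 0.16), Slc25a30 (-1.01 ± 0.25), Slc25a36 (-0.57 ± 0.12), Slc25a40 (-0.41 ± 0.11) and Slc25a24 (-0.40 ± 0.10). The arrays left out were picked from these same data by their deviations. Each added member read above its group on the refed one and below its group on the fasted one, so the omission itself enlarges its fall. The added calls are therefore no separate support. In controls 14 members passed (12.1% of all genes) and in LG2KO 18 (17.5% of all genes). Why these arrays differ was not tested.

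**Figure D5:**
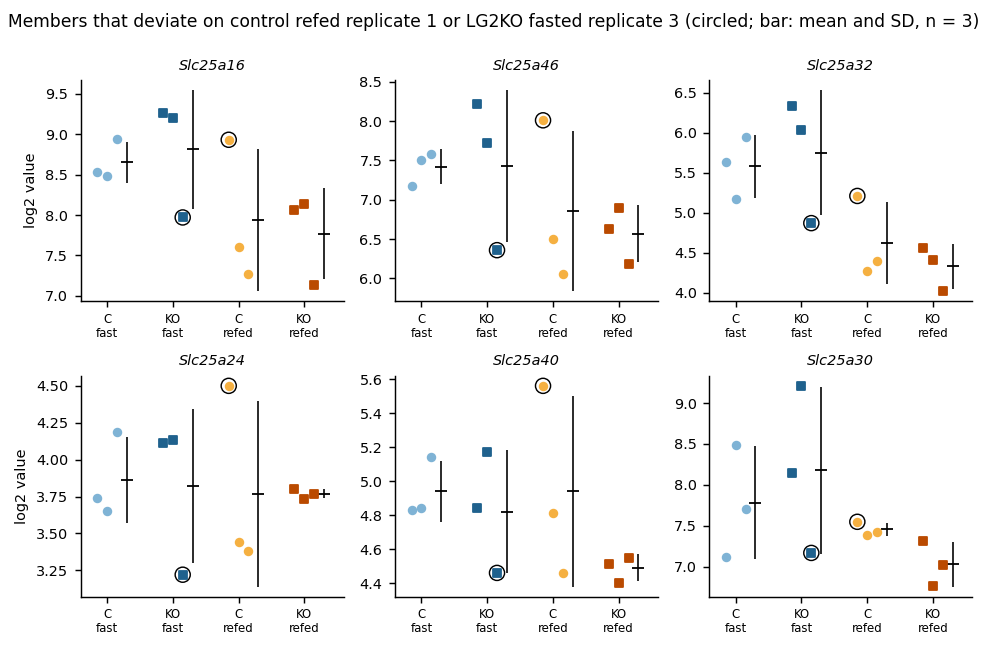
Log2 value of each array (n = 3 per group; C, control; KO, LG2KO; bar, mean and SD; each panel has its own axis, which does not start at 0) for 6 Slc25a genes, with control refed replicate 1 and LG2KO fasted replicate 3 circled. In the panels of Slc25a16, Slc25a46, Slc25a32, Slc25a24 and Slc25a40 the circled refed array lies above its group and the circled fasted array below its group; in the panel of Slc25a30 the fasted one alone stands off clearly.

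Genes that work with the carriers were read from lists. Averaged over genotype, 13.6% of all genes passed, and 24.9% of those in the top 50% by mean. Among malate-aspartate and glycerol phosphate shuttle enzymes, 1 of 6 passed on average over genotype (16.7%, near the share of all genes). It was Got1, the cytosolic aspartate aminotransferase, which fell by 1.84 ± 0.10 (adjusted p = 3.27e-07). Of urea cycle genes, 4 of 6 passed (66.7%, against 13.6% of all genes). The carbamoyl phosphate synthase gene Cps1 fell by 0.29 ± 0.07 (adjusted p = 0.0161), Asl, argininosuccinate lyase, by 0.40 ± 0.05 (adjusted p = 0.0002) and the arginase gene Arg1 by 0.37 ± 0.07 (adjusted p = 0.00224). Nags, which makes the activator of that synthase, rose by 0.27 ± 0.08 (adjusted p = 0.0305). Thus Slc25a15 and most of the urea cycle genes that passed were lower after refeeding.

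In the heme and iron-sulfur list 2 of 7 measured genes passed (28.6%, against 13.6% of all genes). Alas1, the enzyme that starts heme synthesis with glycine, fell by 0.47 ± 0.07 (adjusted p = 0.000815). The inner membrane transporter gene Abcb10 rose by 0.39 ± 0.10 (adjusted p = 0.0253). Slc25a38, the glycine carrier, and Alas1 therefore lay in opposite directions. Of 7 measured folate enzymes of mitochondria, Mthfd1l fell by 0.45 ± 0.10 (adjusted p = 0.00673) and the others did not pass (14.3%, near the share of all genes). Of 4 measured genes for the pyruvate carrier and outer membrane pores, Vdac1 and Vdac2 fell by 0.21 ± 0.05 and 0.17 ± 0.05 (adjusted p = 0.0122 and 0.0378), a share of 50%. Of the 4 measured carrier family genes with other symbols, 0 passed, against 13.6% of all genes, and their median was -0.04.

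The mitochondrial mass and biogenesis list had 4 of 12 genes passing (33.3%, against 13.6% of all genes). The coactivator genes Ppargc1b and Ppargc1a fell by 0.88 ± 0.09 and 0.48 ± 0.09 (adjusted p = 3.75e-05 and 0.00421), the import receptor gene Tomm20 fell by 0.19 ± 0.05 (adjusted p = 0.0179), and Cs, citrate synthase, rose by 0.42 ± 0.07 (adjusted p = 0.00129). The median of that list was -0.13, beside -0.18 for the 42 carriers. Between genotypes, 3 listed genes passed in a comparison, all higher in LG2KO. Asl passed in refed livers (0.40 ± 0.07, adjusted p = 0.0412) and on average over feeding (0.29 ± 0.05, adjusted p = 0.018). Gpd1, the cytosolic glycerol phosphate dehydrogenase, passed in fasted livers (0.67 ± 0.12, adjusted p = 0.0291) and on average (0.49 ± 0.08, adjusted p = 0.0169). Mthfd2l passed on average alone (0.39 ± 0.08, adjusted p = 0.0455). Of all genes, 0.379% passed in refed livers, 0.396% in fasted livers and 1.02% on average.

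Where a member had further probe sets, they were compared with the one used. The 8 members that passed on average and had others carried 13 of them, of which 12 had the same sign, 5 passed in the same direction and 0 passed in the opposite one. Of the 35 other probe sets of members that did not pass, 0 passed. The members' mean values ranged from 2.62 (Slc25a31) to 13.86 (Slc25a39), but levels of different probe sets are not comparable with each other.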

How the data were processed

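The authors deposited values on the log2 scale, and these were used as they stand, with 1 value for each probe set on each array. RMA is the method named in the submitters' processing notes; it subtracts background, makes the arrays' distributions alike and combines the probes of each set. The version was not given in the sources used here, nor was a genome build. Of 45101 probe sets, 34958 had 1 symbol, 932 had several and 9211 were not listed in the platform annotation. The 42 members' symbols matched RefSeq through their Entrez numbers, 42 of 42. All 12 arrays entered 1 fit with a mean per group (limma 3.58.1 in R 4.3.3, eBayes with an intensity trend, 8 residual degrees of freedom, two-sided tests). Benjamini-Hochberg adjustment covered 18194 genes in each of 7 comparisons, and 45101 probe sets in the separate fit used for further probe sets. The number of arrays limits the precision. The fit was tested on simulated data. Figures used matplotlib 3.10.9 in Python 3.11.15. Members given with all arrays' values are those that passed in any comparison and, in each, the 3 with the smallest p, plus Slc25a16, chosen after its values were seen; promoters were shown for up to 4 of them. Members, lists and alternatives were chosen with earlier results of these data known. Alternatives were no intensity trend, array weights, genes in the top 50% by mean, the replicate block, omission of the arrays that stood apart or of each array, the mean of all probe sets, median centring and a fit of the compared groups alone. Some listed genes are not reported here.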

Additional observations from a re-analysis of the deposited data

How the results depend on the processing

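The 46 named gene results are the members that passed in a comparison and, in each, the 3 with the smallest p. None of them changed direction under any alternative run, though their choice by small p leaves little room for that. Over these results and settings, 688 values kept their side of the threshold, 61 no longer passed and 3 newly passed. Most had passed already, so few could newly pass. Members outside this choice that newly passed in a setting, such as Slc25a16 and Slc25a46 on average over genotype, are not in these counts. Counts of members stayed within 1.5 times of those reported, or at 0, except as follows. With array weights the members passing were 2 between genotypes in fasted livers, 3 between genotypes on average, 16 for refeeding in controls and 21 in LG2KO, beside 1.12%, 2.43%, 13.5% and 19.7% of all genes. Without the 2 arrays that stand apart they were 14 in controls and 18 in LG2KO, beside 12.1% and 17.5% of all genes. Leaving out 1 array at a time gave 5 to 10 for refeeding in controls, 4 to 8 in LG2KO, 15 to 20 on average and 0 to 0 in the genotype and interaction comparisons. Calls that held in every such omission were 14 of 16 on average (not Slc25a25 and Slc25a38), 4 of 9 in controls (Slc25a22, Slc25a44, Slc25a45 and Slc25a51) and 4 of 9 in LG2KO (Slc25a13, Slc25a22, Slc25a45 and Slc25a47). In every other setting run, 14 of 16, 6 of 9 and 5 of 9 held. The cause of these changes was not tested. Same-numbered arrays of different groups deviated together in some pairs and not in others (18 pairs, r from -0.46 to 0.77, 6 of them above 0.1). The highest values joined control refed with LG2KO fasted, at 0.75 for replicate 1 and 0.77 for replicate 3. Each of these pairs holds 1 of the arrays that stood apart, so the values cannot decide whether the numbers pair the samples. With the replicate block 17, 11 and 10 members passed for refeeding on average, in controls and in LG2KO, and 0 in the other comparisons; 7 of the 9 LG2KO calls were among the 10, and Slc25a34 (adjusted p = 0.0554) and Slc25a51 (adjusted p = 0.0551) were lost. Median centring moved arrays by at most 0.0282.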
